A study of Schizosaccharomyces pombe with 4 samples.

Results

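The genes at the left end of chromosome I of fission yeast (*Schizosaccharomyces pombe*) were followed one by one, from the chromosome end inwards, in cells lacking set2 and in wild-type cells. They were chosen by systematic name, as the genes on the cosmids SPAC212, SPAC977, SPAC1F8 and SPAC11D3, which lie in that order from the end. The genes SPAC977.07c, SPAC1F8.01, SPAC1F8.02c, SPAC1F8.03c, SPAC1F8.06 and SPAC1F8.07c on the same cosmids were left out. This gave 51 of the 6986 genes in the table, 12 on SPAC212, 17 on SPAC977, 3 on SPAC1F8 and 19 on SPAC11D3. Of these 45 are annotated as protein coding and 5 as pseudogenes, and SPAC11D3.20 was not matched to the annotation. Their order in the table was the same as in the ASM294v3 annotation for the 50 that matched. Coordinates are not given, because the submitters' processing notes name another build, ASM294v2.

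The study compared 2 libraries of a set2 deletion strain (strain SPKK1227, genotype set2d) with 2 libraries of wild type (strain WT972). Both strains were grown in YEA medium at 30 °C, and total RNA of asynchronous log-phase cells was sequenced. The labels name no other allele or treatment for either group, do not give the extent of the deletion, and do not state that the libraries of a group are separate cultures. P-values therefore speak only to how far these libraries spread, and that spread may be technical. The transcript of set2 itself (SPAC29B12.02c) stood at 2257 and 1448 normalized counts in set2d replicates 1 and 2, against 10503 and 8665 in WT replicates 1 and 2. Its log2 change was -2.40 (SE 0.22, limma adjusted p = 0.00041), in the direction the genotype label gives.

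Set2 is the enzyme that methylates lysine at the H3K36 position of histone H3 on transcribed genes. It travels with elongating RNA polymerase II, and its mark recruits the Clr6 histone deacetylase to gene bodies. The subtelomeres of *S. pombe* are gene-poor stretches next to the telomeres that are kept at low expression in vegetative growth. The part next to the telomere carries heterochromatin marked by the histone methyltransferase Clr4, and the part further in carries condensed chromatin that depends on the shugoshin Sgo2. Their genes include repeated families shared between chromosome ends, transporters and enzymes of metabolism.

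Levels are normalized read counts, which the authors deposited as log2 values, and no value in the table lies below a floor of 10. A change measured against that floor is a lower bound. Each log2 change is the mean of the set2d libraries minus that of the WT libraries, and a gene was said to rise or fall when its Benjamini-Hochberg adjusted p over all 6633 genes tested was under 0.05 by limma. In these bulk samples, more cells transcribing a gene and more RNA per cell cannot be told apart.

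Transcripts from part of the left end rose in set2d, and no member passed as lower. Of the 46 members that could be tested, 19 were higher and 0 lower, where 11.6% of all genes tested were higher and 2.77% lower. Before adjustment, 28 members were higher and 3 lower at p under 0.05 (18.6% and 9.62% of all genes tested), and limma without a mean-variance trend gave 18 and 0. The median log2 change over the 46 was 0.77, and over all genes tested it was 0.01. Both set2d libraries lay above both WT libraries for 35 of the 46 members and below for 5, where the shares among all genes tested were 31.5% and 26.2%. The remaining 5 members, SPAC212.05c, SPAC212.03, SPAC212.01c, ayr2 (SPAC977.08) and plb4 (SPAC977.09c), were at the floor in all 4 libraries and were not tested.

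Some members could be tested only because they were above the floor in set2d. These were tlh1, SPAC212.10, SPAC212.09c, SPAC212.02 and SPAC977.05c, which were at the floor in both WT libraries. The filter fixed their direction. Among the 41 members above the floor in at least 1 WT library, 18 were higher and the median log2 change was 0.65. The corresponding share among all genes of that kind was 11.4%. Of the 41, 30 had both set2d libraries above both WT libraries and 5 below, where the shares among all genes of that kind were 31.2% and 26.4%. The count of 19 became 11 without set2d replicate 1, 13 without set2d replicate 2, 19 without WT replicate 1, and 13 when WT replicate 2 was left out. That of 18 became 9, 10, 18 and 12 in the same order. Testing every gene of the table, floor values included, gave 5 members higher. That fit called 198 of the 6986 genes higher or lower, against 951 of 6633 in the fit used above. The losses of single calls named further on leave the fit of every gene aside.

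**Figure D1:**
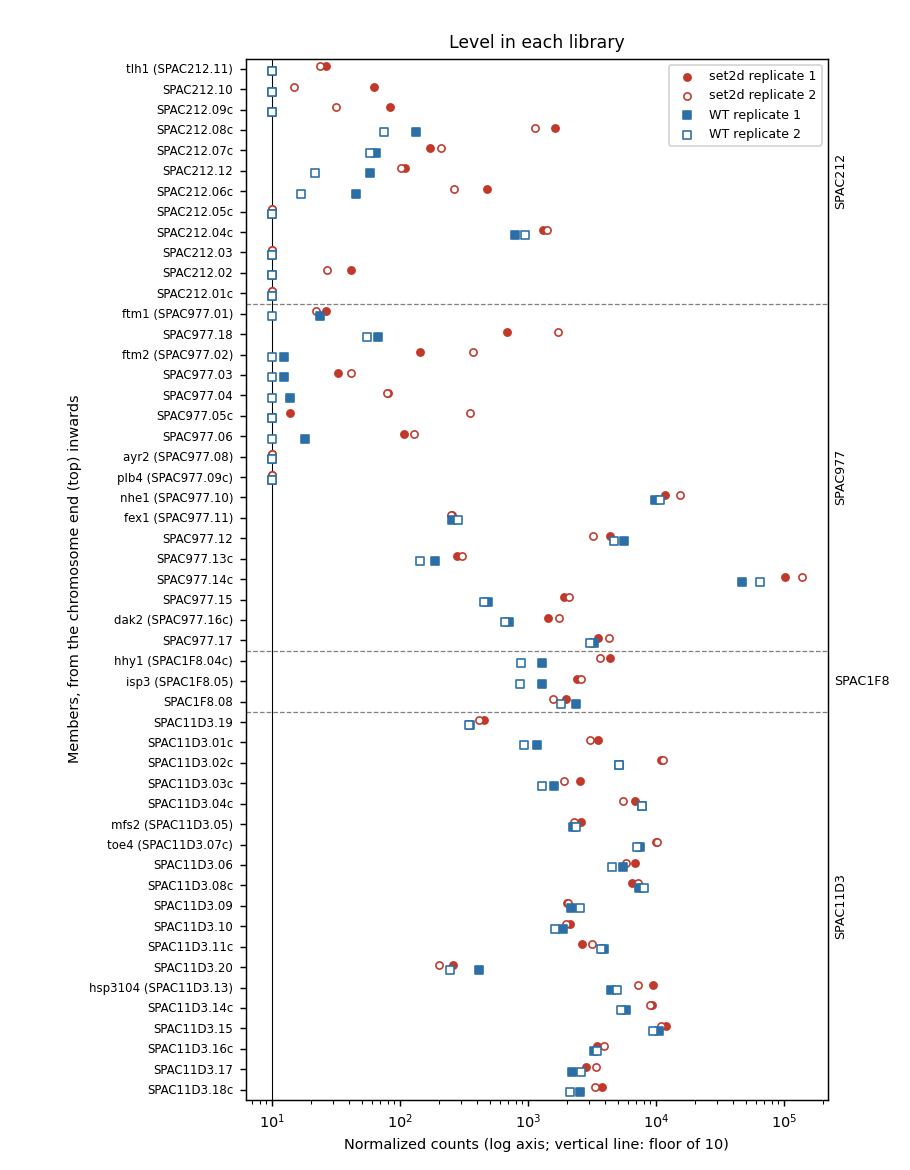
Level of each of the 51 members in each library, in normalized counts on a log axis, ordered from the chromosome end (top) inwards, with set2d replicates as circles and WT replicates as squares, filled for replicate 1 and open for replicate 2. Most members on SPAC212 and the outer part of SPAC977 sat at or near the floor of 10 in WT, and from nhe1 inwards the lowest value in any library was 142.

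The SPAC212 genes next to the telomere had low counts in WT, and 4 of the 9 that could be tested rose. Their log2 changes ranged from 0.66 to 3.78. The 5 that were above the floor in a WT library had both set2d libraries above both WT libraries, and for the other 4 the filter fixed that order. SPAC212.08c, annotated as a GPI-anchored protein and so predicted to sit at the cell surface, had 1626 and 1139 normalized counts in set2d, against 132 and 74.3 in WT. The mean was 13.4-fold higher and the log2 change 3.78 (SE 0.35, limma adjusted p = 0.00041). The set2d libraries stood well clear of the WT libraries. SPAC212.06c, a DNA helicase-like gene that matches the helicase genes tlh1 and tlh2 over 52.5% of its length, had 479 and 265 in set2d, against 45.4 and 16.7 in WT. Its log2 change was 3.69 (SE 0.53, limma adjusted p = 0.00304).

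Of the 4 pseudogenes on this cosmid, SPAC212.07c and SPAC212.09c rose. SPAC212.07c, annotated as a pseudogene, had 172 and 209 normalized counts in set2d, against 64.8 and 58.5 in WT (log2 change 1.62, SE 0.34, limma adjusted p = 0.0158). SPAC212.09c, a malic enzyme pseudogene with frameshifts, had 83.9 and 31.7 in set2d and was at the floor in both WT libraries, so its mean was at least 5.78-fold higher (limma adjusted p = 0.0271). Its call was lost under quantile normalization. The malic acid transport pseudogene SPAC212.10 stood at 62.7 and 14.8 in set2d and at the floor in WT, and did not pass (limma adjusted p = 0.177). Its log2 change of 1.61 became 0.56 without set2d replicate 1 and 2.65 without set2d replicate 2, where it passed (limma adjusted p = 0.0321).

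The outermost member, tlh1 (SPAC212.11), encodes a RecQ-type DNA helicase. It had 26.6 and 23.5 normalized counts in set2d and was at the floor in both WT libraries (log2 change 1.32, SE 0.48, limma adjusted p = 0.115). Both set2d libraries lay above both WT libraries, and the gene passed only by limma without a trend and when every gene of the table was tested. Some passing calls on this cosmid were lost once a library was left out, while the log2 changes kept their direction. Over these fits the log2 change was 1.48 to 1.77 for SPAC212.07c and 2.97 to 4.41 for SPAC212.06c. For SPAC212.07c the call was lost without set2d replicate 2 (limma adjusted p = 0.0556) and without WT replicate 2 (0.0624), and for SPAC212.06c without set2d replicate 1 (0.0889) and without set2d replicate 2 (0.0556).

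Among the others on SPAC212, SPAC212.12, for another GPI-anchored protein, had 108 and 102 normalized counts in set2d against 58.0 and 21.4 in WT, and SPAC212.02 had 41.4 and 26.8 in set2d and was at the floor in WT. Neither passed (limma adjusted p = 0.0833 and 0.051), and SPAC212.12 passed without WT replicate 1 and SPAC212.02 without set2d replicate 2 and by limma without a trend. The uncharacterized gene SPAC212.04c, which has no near-identical copy, was the best expressed of the cosmid in WT by normalized counts not corrected for length. Its set2d libraries stood at 1309 and 1411, against 785 and 937 in the WT libraries, and its log2 change of 0.66 did not pass (limma adjusted p = 0.0743).

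Larger changes lay on the outer part of SPAC977, from ftm1 to plb4, a division made after the values were seen. Of the 7 genes that could be tested there, 5 rose, and the median log2 change of the 7 was 2.80. That median is the value of SPAC977.05c, which was at the floor in both WT libraries and did not pass, and whose direction the filter fixed. Among the 11 members outward of nhe1, on both cosmids, that were above the floor in at least 1 WT library, 8 rose. Their median log2 change was 2.77. The largest change of any member was that of ftm2 (SPAC977.02), a gene of a family of transmembrane proteins found at several chromosome ends. It had 143 and 371 normalized counts in set2d, against 12.4 and 10 in WT, where the value of WT replicate 2 is the floor (log2 change 4.37, SE 0.52, limma adjusted p = 0.00127). The uncharacterized SPAC977.18 had 687 and 1695 in set2d, against 67.1 and 54.8 in WT. The mean was 19.5-fold higher and the log2 change 4.15 (SE 0.43, limma adjusted p = 0.000637).

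The other 3 that rose there had smaller log2 changes. SPAC977.06, uncharacterized, had 107 and 129 normalized counts in set2d, against 17.95 in WT replicate 1 and the floor in WT replicate 2 (log2 change 3.13, SE 0.46, limma adjusted p = 0.00321). SPAC977.04, also uncharacterized, had 80.7 and 79.3 in set2d, against 13.8 and the floor in WT (log2 change 2.77, SE 0.44, limma adjusted p = 0.00456). SPAC977.03, a methyltransferase gene, had 32.9 and 41.6 in set2d, against 12.4 and the floor in WT (log2 change 1.73, SE 0.47, limma adjusted p = 0.0448). The last of these calls was lost without set2d replicate 2 (0.0556) and without WT replicate 2 (0.108), under quantile normalization and with libraries centred on their medians. That of SPAC977.04 was lost when values under 50 were raised to 50. For 4 of the 5, all but SPAC977.18, a WT library was at the floor and the change is understated.

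The set2d libraries disagreed at SPAC977.05c, a gene for a protein with a Vel1p domain. It stood at 13.8 in set2d replicate 1 and 352 in set2d replicate 2, and at the floor in both WT libraries. Its log2 change of 2.80 (SE 1.24) did not pass (limma adjusted p = 0.182), and it was 5.14 without set2d replicate 1, where it passed (limma adjusted p = 0.025), and 0.47 without set2d replicate 2. The transmembrane gene ftm1 (SPAC977.01) had 26.6 and 21.9 in set2d and 23.5 and the floor in WT, and the groups overlapped.

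**Figure D2:**
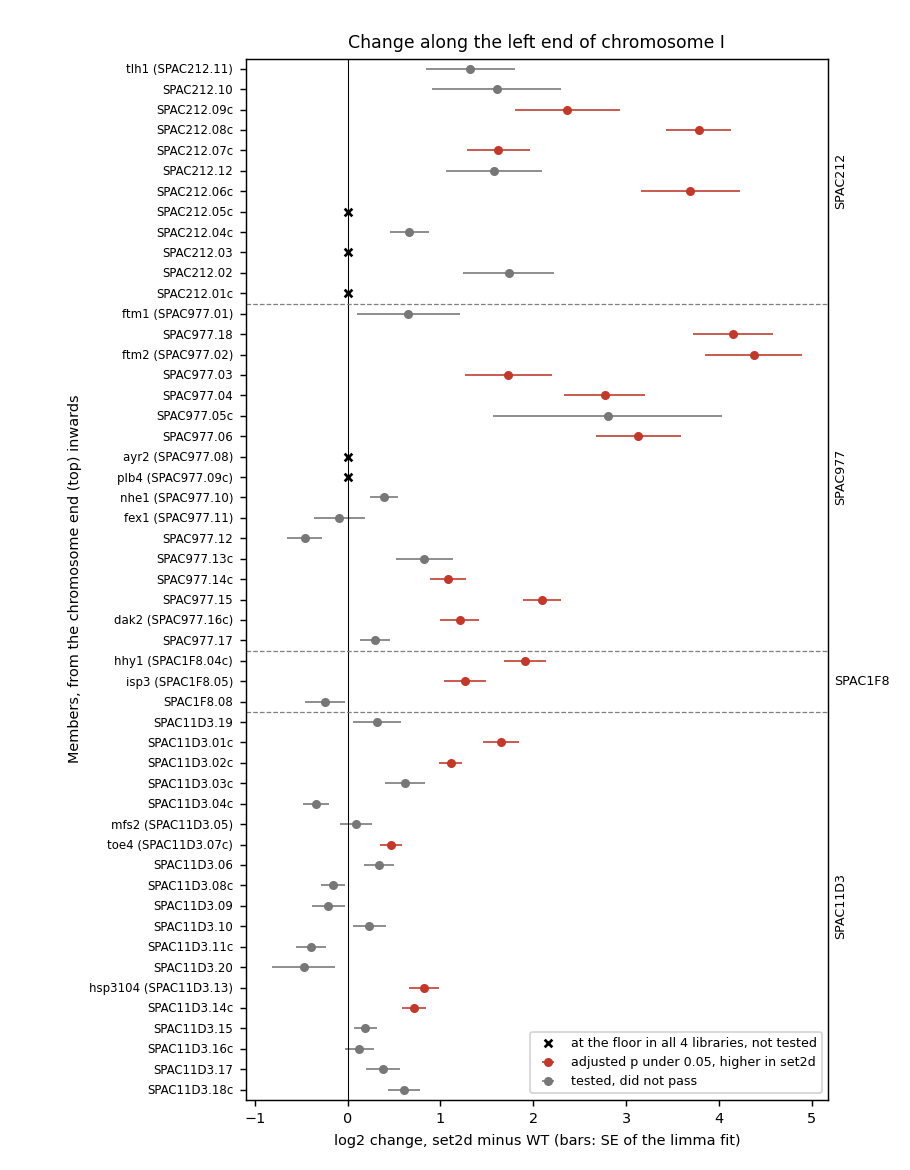
Log2 change, set2d minus WT, of each member in the same order, with bars for the SE of the limma fit, red for members that passed and grey for tested members that did not, and crosses at 0 for the 5 members at the floor in all 4 libraries. Changes reach 4.37 on the outer part, drop to between -0.46 and 0.83 from nhe1 to SPAC977.13c, reach 2.09 at SPAC977.15 and stay at or below 1.65 on SPAC11D3.

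A stretch with no call followed, from nhe1 to SPAC977.13c. The gene nhe1 (SPAC977.10), also known as sod2, encodes the sodium/proton antiporter that exports sodium ions across the plasma membrane. It had 11688 and 15443 normalized counts in set2d, against 9842 and 10709 in WT (log2 change 0.39, SE 0.15, limma adjusted p = 0.136). The fluoride export channel gene fex1 (SPAC977.11) had 255 and 252 in set2d and 255 and 285 in WT, so the groups overlapped. The L-asparaginase gene SPAC977.12, for an enzyme that breaks down asparagine, had 4349 and 3196 in set2d, against 5644 and 4667 in WT. It lay lower in both set2d libraries and did not pass (log2 change -0.46, SE 0.19, limma adjusted p = 0.153). The hydrolase pseudogene SPAC977.13c lay higher in both set2d libraries, at 277 and 304 against 189 and 142 in WT, and did not pass either (log2 change 0.83, limma adjusted p = 0.118).

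Inward of that stretch 3 adjacent genes for metabolic enzymes rose. SPAC977.15, for a protein of the dienelactone hydrolase family, had 1898 and 2100 normalized counts in set2d, against 486 and 450 in WT (4.27-fold, log2 change 2.09, SE 0.21, limma adjusted p = 0.000527). The libraries of each group lay close together. This call held without any one library and in every other fit that was run. The gene dak2 (SPAC977.16c), for a dihydroxyacetone kinase of glycerol breakdown, had 1439 and 1726 in set2d, against 712 and 656 in WT (log2 change 1.21, SE 0.21, limma adjusted p = 0.00757). SPAC977.14c, for an aldo-keto reductase, had 100806 and 136808 in set2d, against 47163 and 65272 in WT (log2 change 1.08, SE 0.19, limma adjusted p = 0.00781).

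Beside dak2 and partly overlapping it on the opposite strand, SPAC977.17, for a channel of the MIP superfamily that includes glycerol and water channels, had 3494 and 4265 normalized counts in set2d, against 3251 and 3056 in WT. Its log2 change of 0.29 did not pass. The call of SPAC977.14c was lost by limma without a trend, without set2d replicate 1 (limma adjusted p = 0.0624) and without set2d replicate 2 (0.0901). That of dak2 was lost without set2d replicate 1 (0.0543), set2d replicate 2 (0.0656) and WT replicate 2 (0.0538). Over the inner 8 SPAC977 genes, from nhe1 to SPAC977.17, 3 rose with all 4 libraries, and 1 did so when either set2d library was left out.

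On SPAC1F8, 2 of the 3 members rose. The hydrolase gene hhy1 (SPAC1F8.04c) had 4345 and 3661 normalized counts in set2d, against 1286 and 875 in WT (log2 change 1.91, SE 0.23, limma adjusted p = 0.00124). The gene isp3 (SPAC1F8.05), whose protein is a component of the spore wall made in sexual differentiation, had 2422 and 2603 in set2d, against 1274 and 861 in WT (log2 change 1.26, SE 0.23, limma adjusted p = 0.00839). In both cases the groups were apart. The uncharacterized SPAC1F8.08 had 1968 and 1551 in set2d and 2362 and 1817 in WT, and the groups overlapped. The calls were lost for hhy1 without set2d replicate 1 (0.0631) and for isp3 without set2d replicate 1 (0.108), set2d replicate 2 (0.0915) and WT replicate 2 (0.0672).

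The genes left out of the set lie between these members, and 3 of the 6 rose, namely SPAC1F8.01 (ght3) by 3.20, SPAC1F8.03c (str3) by 3.45 and SPAC977.07c (pfl6), at the floor in both WT libraries, by at least 2.92 on the log2 scale. The other 3, SPAC1F8.02c (shu1), at the floor in WT replicate 2, at 0.70, SPAC1F8.06 (pfl8) at 0.48 and SPAC1F8.07c (pdc101) at -0.08, did not pass.

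SPAC11D3 is the innermost cosmid, and 5 of its 19 genes rose, with a median log2 change of 0.32 over the 19. SPAC11D3.01c, for a protein of the Con-6 family named after a conidiation gene of *Neurospora*, had 3536 and 3028 normalized counts in set2d, against 1164 and 933 in WT (log2 change 1.65, SE 0.20, limma adjusted p = 0.00134). SPAC11D3.02c, for an ELLA family acetyltransferase, had 10825 and 11259 in set2d, against 5132 and 5106 in WT (log2 change 1.11, SE 0.12, limma adjusted p = 0.000772). These adjacent genes held the largest changes on the cosmid. The call of SPAC11D3.02c, like that of SPAC977.15, held in every fit that was run, and that of SPAC11D3.01c was lost without set2d replicate 1 (0.0536).

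Farther in, 3 more genes rose, with log2 changes under 1. The gene hsp3104 (SPAC11D3.13), for a glyoxalase III of the ThiJ family that detoxifies methylglyoxal, had 9475 and 7207 normalized counts in set2d, against 4430 and 4921 in WT (log2 change 0.82, SE 0.16, limma adjusted p = 0.0125). SPAC11D3.14c, for a 5-oxoprolinase of glutathione breakdown, had 9354 and 8926 in set2d, against 5853 and 5286 in WT (log2 change 0.72, SE 0.13, limma adjusted p = 0.00767). The transcription factor gene toe4 (SPAC11D3.07c) had 10039 and 10218 in set2d, against 7539 and 7142 in WT (log2 change 0.46, SE 0.12, limma adjusted p = 0.0331). The groups did not overlap for any of the 3.

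The call of toe4 was lost whichever of the 4 libraries was left out, at adjusted p from 0.0821 to 0.338 by limma, by limma without a trend, under quantile normalization and with libraries centred on their medians. That of hsp3104 was lost without set2d replicate 1 (0.0921) and by limma without a trend. That of SPAC11D3.14c was lost without set2d replicate 1 (0.0717), set2d replicate 2 (0.0556) and WT replicate 2 (0.0854). The count of 5 on this cosmid became 1 without set2d replicate 1, 3 without set2d replicate 2, 4 without WT replicate 1, and 3 when WT replicate 2 was left out.

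The other 14 genes on SPAC11D3 did not pass, with log2 changes from -0.47 to 0.62. Several are transporters and enzymes of nitrogen metabolism. The amino acid permease gene SPAC11D3.08c had 6469 and 7255 normalized counts in set2d, against 7299 and 7977 in WT (log2 change -0.16). The second 5-oxoprolinase gene of the cosmid, SPAC11D3.15, had 12020 and 10806 in set2d, against 10592 and 9401 in WT (log2 change 0.19). The MatE family transporter gene SPAC11D3.06 had 6795 and 5840 in set2d, against 5542 and 4479 in WT (log2 change 0.34). It lies wholly under toe4 on the opposite strand and covers 44.3% of toe4. Whether reads were counted by strand is unknown, so the values of SPAC11D3.06 and toe4 may not be separate measurements. SPAC11D3.04c, for a protein with a SnoaL-like domain, had 6836 and 5483 in set2d, against 7725 and 7780 in WT (log2 change -0.34, limma adjusted p = 0.167). It lay lower in both set2d libraries, as did SPAC11D3.08c, the agmatinase gene SPAC11D3.09 and the truncated Gal4-like gene SPAC11D3.11c.

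The carboxylic acid transporter gene SPAC11D3.18c, the innermost member, had 3752 and 3316 normalized counts in set2d, against 2542 and 2117 in WT (log2 change 0.60, SE 0.17). It missed the threshold narrowly (limma adjusted p = 0.0531). The log2 changes of the others were 0.62 for SPAC11D3.03c, 0.38 for the zinc-cluster transcription factor gene SPAC11D3.17, 0.32 for SPAC11D3.19, 0.23 for the cysteine desulfurase family gene SPAC11D3.10, 0.13 for SPAC11D3.16c, 0.09 for the membrane transporter gene mfs2 (SPAC11D3.05) and -0.47 for SPAC11D3.20. Of all 27 members tested that did not pass, 20 had a change over 1.5 times larger or smaller once some library was left out, and 0 turned their sign. Among the 19 that passed, 0 moved by so much, and 8 passed without each library in turn.

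**Figure D3:**
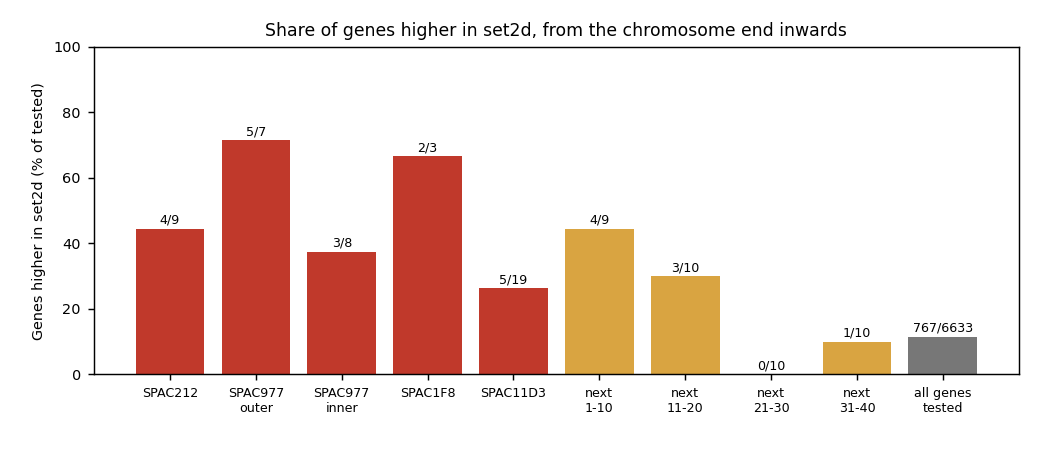
Share of tested genes that were higher in set2d, in percent, for the members by cosmid (red), the 40 genes that follow inwards in blocks of 10 (yellow) and all genes (grey), with the number higher over the number tested above each bar. The outer SPAC977 genes have the highest share, 71.4%, and the genes 21 to 40 places inwards have 0% and 10%, against 11.6% of all genes.

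Some genes beyond the last member rose too. Among the 40 genes that follow it inwards, non-coding genes included, 4 of 9 tested were higher in the first 10, 3 of 10 in the next, 0 of 10 in the third block and 1 of 10 in the fourth. The medians of the log2 change were 0.53, 0.24, -0.06 and 0.13 in the same order. Over all genes tested, 11.6% were higher and the median was 0.01. Those higher in the first block were adh4, SPAC5H10.04, SPAC5H10.05c and SPAC5H10.07. Of these, SPAC5H10.04 and SPAC5H10.05c overlap each other over 97.6% of the first, so they are no separate measurements, and in the second block SPAC5H10.10 lies under SPNCRNA.615 over 90.2% of its length. The call of SPAC5H10.07 was lost whichever library was left out. Without single libraries the first block held 2 or 3 genes higher and the second block 0 to 2, the 0 being without set2d replicate 1.

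Non-coding RNAs annotated among the members were counted as well, 19 in all. Of 17 tested, 14 were higher and 0 lower, with a median log2 change of 1.65. Among all SPNCRNA genes tested, 13.1% were higher and the median was 0.09. The largest changes were 2.33 at SPNCRNA.603, 2.19 at SPNCRNA.136 and 2.07 at SPNCRNA.601. Among them SPNCRNA.136 and SPNCRNA.601 overlap each other, as do SPNCRNA.602 and prl19, and SPNCRNA.604 and SPNCRNA.139. The count of 14 became 6 when either set2d library was left out, 13 without WT replicate 1 and 11 without WT replicate 2.

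Several of these RNAs lie over members on the opposite strand, and the sources used here do not say whether reads were counted by strand. SPAC11D3.14c had 9354 and 8926 normalized counts in set2d and 5853 and 5286 in WT, and SPNCRNA.609, which covers 99.7% of it, had 9344 and 8920 in set2d and 5840 and 5260 in WT. The values were nearly the same in every library, so the change of the gene and that of the RNA cannot be told apart. SPNCRNA.605 covers all of hhy1, SPNCRNA.606 62.5% of isp3, SPNCRNA.608 all of SPAC11D3.02c and SPAC11D3.03c, and SPNCRNA.611 all of SPAC11D3.18c. Levels were not all alike in these pairs, with SPNCRNA.606 at 1311 and 1146 in set2d and SPNCRNA.608 at 15687 and 19821. Log2 changes were 1.91 at SPNCRNA.605 and hhy1, and 1.85 at SPNCRNA.606 against 1.26 at isp3. SPNCRNA.608 had 1.06, against 1.11 at SPAC11D3.02c and 0.62 at SPAC11D3.03c. SPNCRNA.611 had 0.70 and SPAC11D3.18c 0.60. What each strand contributes cannot be told apart in these pairs either. At SPAC11D3.15 the changes of the gene and the RNA were further apart. SPNCRNA.610, which lies wholly within that gene, had 3588 and 2859 in set2d, against 1159 and 950.3 in WT (log2 change 1.61, limma adjusted p = 0.00175), while the value for the whole gene was 0.19. The call of SPNCRNA.610 was lost without set2d replicate 1 (0.0543).

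From nhe1 inwards 10 of 30 members were higher, where 11.6% of all genes tested were. Of the 20 members there that an annotated gene of ASM294v3 overlaps over at least 50% of their length, 8 were higher. Of the 9 that are not overlapped so far, 2 were higher, SPAC977.14c and hsp3104, and the overlap of SPAC11D3.20 is unknown. Median log2 changes were 0.53 for the overlapped genes and 0.13 for the 9. The count of 10 became 2 without set2d replicate 1, 5 without set2d replicate 2, 9 without WT replicate 1, and 6 when WT replicate 2 was left out. What overlapping transcripts contribute was not tested.

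Most of the outer members have near-identical copies. Of the 51 members 21 have a copy elsewhere among the table's genes at 95% identity or more over at least 50% of their length, 19 of them among the 21 members outward of nhe1, and the others are fex1 and SPAC977.12. Of the 21 with a copy, 10 were at the floor in both WT libraries and 5 in all 4, and of the 29 with no copy found 0 were at the floor in both WT libraries. SPAC11D3.20, which is not in the annotation, could not be searched. How reads matching several places were counted is unknown here. A low count of these genes can therefore not be told apart from reads lost or given to a copy. Likewise, a rise at such a gene cannot be told apart from reads of a copy given to it. The largest changes, at ftm2, SPAC977.18, SPAC212.08c and SPAC212.06c, were all at genes with a copy.

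The copies had values of their own. The copy of tlh1 on chromosome II, tlh2 (SPBCPT2R1.08c), is identical to it over 99.98% of the aligned bases. It had 450.3 and 376 normalized counts in set2d, against 26.4 and 19.4 in WT (log2 change 4.19, limma adjusted p = 0.000298), where tlh1 had 26.6 and 23.5 in set2d. For ftm1 the copy ftm4 (SPAC750.05c) had 756 and 915 in set2d, against the floor in WT replicate 1 and 10.04 in WT replicate 2, while ftm1 itself had 26.6 and 21.9 in set2d. For ftm2 the member had more counts than its copies in set2d, and the copies ftm6, ftm7 and ftm3 had at most 44.9 in any library.

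All 3 copies of SPAC977.06 rose, SPBC1348.07 by at least 4.17, SPBPB2B2.07c by at least 3.85 and SPBPB2B2.14c by at least 2.85 on the log2 scale, since WT replicate 2 or both WT libraries were at the floor. The copies of SPAC977.05c, SPBPB2B2.15 and SPBC1348.06c, were above the floor in set2d replicate 2 alone, at 64.0 and 19.2, where the member was high too. Among the members inward of plb4, the copy of fex1, fex2, had a log2 change of -0.04, and the copy of SPAC977.12, SPBPB8B6.05c, one of -0.31, and neither passed. Over the 35 distinct copies that are not members, 17 could be tested and 14 were at the floor in all 4 libraries. Of the 17, 11 were at the floor in both WT libraries and could only be higher, and 8 of them passed. Of all 31 tested genes of that kind 14 passed (45.2%). These 31 include the 11 copies and 5 members, so they are no separate background. Of the other 6 copies tested, 4 were higher and 0 lower. Among all genes above the floor in at least 1 WT library, 11.4% were higher.

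Of the 29 members with no copy found, 11 were higher, where 11.6% of all genes tested were, and the median log2 change was 0.46. Outward of nhe1 these were SPAC212.07c, which rose, and SPAC212.04c, which did not pass.

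**Figure D4:**
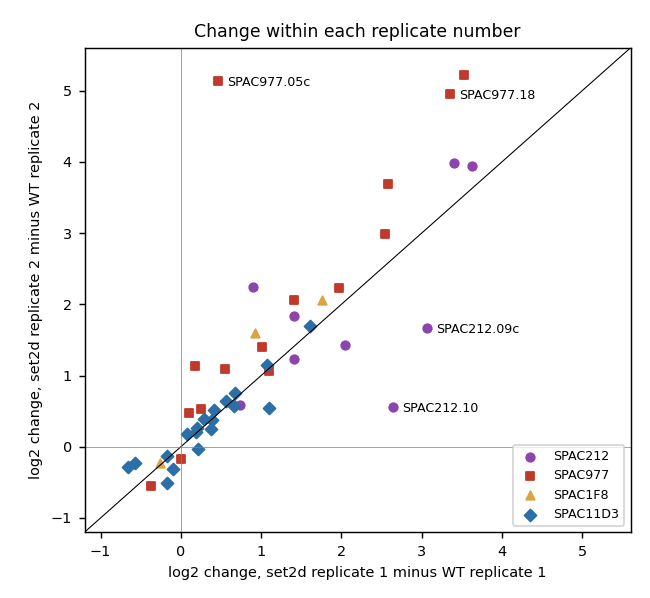
Log2 change of each of the 46 tested members within replicate number 1 (horizontal) and within replicate number 2 (vertical), by cosmid, with the line of equal change. Most members lie near the line, SPAC977.05c lies at 0.47 and 5.14, and the SPAC212 pseudogenes SPAC212.09c and SPAC212.10 lie below it.

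The libraries of a group also differed from each other along the end. On SPAC212, 7 of the 9 tested genes were higher in set2d replicate 1 than in set2d replicate 2, with a median log2 difference of 0.51. On the outer part of SPAC977 the balance was the other way, with 5 of 7 genes higher in set2d replicate 2 and a median of -0.34. Of the same 7 genes, 6 were higher in WT replicate 1 and 0 in WT replicate 2, with a median of 0.31. All but SPAC977.18 were at the floor in WT replicate 2, so only SPAC977.18 could have been higher there. Over all 6633 genes tested, 3267 were higher in set2d replicate 1 and 3356 in set2d replicate 2, with a median difference of -0.005. The median absolute difference over all genes was 0.21 between the set2d libraries and 0.13 between the WT libraries. Several genes of these parts have few reads, such as 25 at tlh1 and 31 at SPAC977.03 in set2d replicate 1. The difference between the cosmids was not tested.

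The other ends of chromosomes I and II were counted in the same way. Over all coding genes that lie no farther from the end than the innermost member, the left end of I had 21 of 49 tested higher, or 42.9%. The right end of I had 32 of 45 (71.1%), the left end of II had 26 of 31 (83.9%), and the right end of II had 21 of 35 (60%). Medians of the log2 change were 0.72, 1.24, 1.79 and 1.24 in the same order. Of the genes tested, 4, 3, 2 and 4 in that order were at the floor in both WT libraries and could only be higher. At the right end of II 2 genes were lower, and 0 were at the other ends. Over all genes tested, 11.6% were higher and 2.77% lower. The ends share copies of genes and all rest on the same 4 libraries, and the differences between them were not tested. Without set2d replicate 1 the count at the left end of I was 13, and without set2d replicate 2 it was 14. At the left end of II it was 17 without set2d replicate 2.

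Genes for factors known to act on subtelomeric chromatin were read from a list of 28, all of which were measured. Of these 8 were higher (28.6%, against 11.6% of all genes tested) and 1, set2, was lower. Among those higher were clr4 by 1.48 and rik1 by 0.87 on the log2 scale, which encode parts of the complex that methylates histone H3 in heterochromatin, mit1 by 1.54 and clr2 by 0.90, of the remodelling and deacetylase complex SHREC, cph1 by 0.87, of the Clr6 complex, sgo2 by 0.56 and the telomere protein gene rif1 by 0.41. The heterochromatin protein gene swi6 had a log2 change of -0.02, and the telomere protein genes taz1, rap1 and pot1 had 0.26, -0.06 and -0.01 and did not pass. The median of the list was 0.06. Opposite-strand genes cover 99.98% of rik1 and 54.2% of clr4, and a non-coding RNA covers all of sgo2. The calls of sgo2 (limma adjusted p from 0.0586 to 0.201) and rif1 (0.0718 to 0.319) were lost whichever library was left out. That of rik1 was lost without set2d replicate 2, that of cph1 without set2d replicate 1, and that of clr2 without either set2d replicate, while those of clr4 and mit1 held. The count of 8 became 3 without set2d replicate 1, 3 without set2d replicate 2, 6 without WT replicate 1 and 5 without WT replicate 2.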

How the data were processed

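RNA of 2 set2d and 2 WT libraries was sequenced. The submitters' processing notes name STAR, version 2.5.4b, featureCounts, version 1.5.0-p1, and the build ASM294v2. The authors deposited 1 log2 value of normalized counts per gene and library, with a floor at 10 in the values. For the normalization, annotation, strand setting and treatment of multiply mapped reads the method was not given in the sources used here. To gauge depth, low values were compared. For set2d replicate 1, each of 684 genes with low values was a whole multiple of 1.06 within a tolerance of 0.02 steps (100%), which puts the floor at 9.42 reads. The best steps for the others made only 61.4% (set2d replicate 2), 36.4% (WT replicate 1) and 16.3% (WT replicate 2) of low values whole, where chance gives 4%, so their depth was not settled.

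The ASM294v3 annotation, used only for names, products, order, overlap and copies, matched 6838 of 6986 locus tags, after 2 reassigned tags were set aside. Copies were searched with BLAST 2.17.0. The values were already on a log2 scale, so limma 3.58.1 (R 4.3.3) with a mean-variance trend was run on them without a pseudocount, for the 6633 genes that 2 or more libraries had above the floor, with 2 residual and 6.16 prior degrees of freedom and Benjamini-Hochberg adjustment over all of them. The procedure was tested on simulated data. Values in every library are given for the members with the largest changes among those that passed, up to 20 (19 passed), tlh1, nhe1, any that fell (0), the 6 best expressed that did not pass, and set2. Where other members have such values, they were chosen after being seen. Members and lists were chosen with earlier results of these data known. The value of 1 gene of the list of silencing factors is not reported here. No sequences are printed, since no genome of the authors' build was used.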

Additional observations from a re-analysis of the deposited data

How the results depend on the processing

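With 2 libraries a group, many calls were lost once 1 library was left out. The fit then had 1 residual degree of freedom. Prior degrees of freedom were 2.75 and 2.77 without set2d replicates 1 and 2, and 25.6 and 28.4 without WT replicates 1 and 2. Calls over the whole table were fewer in each of these fits too, so a lost call need not rest on the library left out. The fits without 1 library each gave 11 to 19 members higher and 0 lower, where all 4 gave 19 and 0. In these fits the lone library of a group is assumed to vary like the other group. By cosmid they gave 3 to 5 on SPAC212, 5 to 8 on SPAC977, 0 to 2 on SPAC1F8 and 1 to 4 on SPAC11D3, 4 to 6 inward neighbours, 17 to 24 genes at the left end of II, and 3 to 6 of the list of silencing factors. Testing every gene of the table gave 5 members higher, with 1.21 prior degrees of freedom, against 6.16 in the fit used for the calls above. It called 198 of 6986 genes higher or lower, where the fit used above called 951 of 6633. Leaving out members with a near-identical copy left 11 of 30 and a median log2 change of 0.43 (SPAC11D3.20, which could not be searched, kept), and leaving out members overlapped over at least 50% left 7 of 18 tested, SPAC11D3.20 again kept. Limma without a trend gave 3 higher on SPAC11D3 and 5 of the silencing list.

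The libraries of each group share numbers and a title prefix by number, and the labels do not say that these pair them. The number 1 minus number 2 difference correlated at 0.45 across genes between set2d and WT. A fit with the replicate block gave 30 members higher and 3 lower (SPAC977.12, SPAC11D3.04c and SPAC11D3.11c). It gave 8 higher on SPAC212 and 9 on SPAC11D3, 15 higher among the inward neighbours, and 2 lower on the silencing list. That fit had 1 residual degree of freedom and infinite prior degrees of freedom. Over the whole table it called 2227 of 6633 genes higher or lower, against 951 without the block. Limma without a trend, quantile normalization, centring on medians, a mean level of at least 50 and raising values under 50 to 50 gave 16 to 18 members higher. One alternative was added after seeing the data, leaving out members overlapped by a gene of the table, and gave 15.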

Other observations

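Among the genes annotated between the members, SPAPJ695.02 had 503 and 2260 normalized counts in set2d, against 205 and 249 in WT (log2 change 2.24, limma adjusted p = 0.0396). Leaving out set2d replicate 2 gave 1.16, and the call was lost (limma adjusted p = 0.0787). The non-coding RNA SPNCRNA.147 lay lower in both set2d libraries, at 17.0 and the floor of 10, against 23.5 and 59.4 in WT, and did not pass (limma adjusted p = 0.136).

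Beyond the innermost member, adh4, for an alcohol dehydrogenase, had 36027 and 43888 normalized counts in set2d, against 14308 and 14347 in WT (log2 change 1.47, limma adjusted p = 0.000268). The chitin synthase gene chs1 was higher by 0.90 on the log2 scale. Among the 40 genes that follow the members inwards, 3 were lower in set2d, gmh2 at -0.63, the glycine decarboxylase gene gcv2 at -0.54 and asl1 at -0.52. The call of gcv2 was lost whichever library was left out, that of gmh2 without any library but WT replicate 1, and that of asl1 without either WT library. That of chs1 was lost without set2d replicate 2.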
